A study of Homo sapiens with 8 samples.

Results

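The genes described here are those expressed in both of 2 human prostate cell lines, compared by how far their response to Pao extract differed between the lines. BPH-1 is an immortalized line of prostate epithelium, and WPMY-1 is an immortalized line of prostate stroma with a myofibroblast character. Pao extract comes from tree bark and contains β-carboline alkaloids. Each line received either vehicle or Pao extract at 250 μg/ml, and RNA was hybridised to Affymetrix transcriptome arrays, with 2 arrays in each of 4 groups and 8 arrays in all. BPH-1 cells were grown in RPMI1640 medium and WPMY-1 cells in DMEM, so line and medium cannot be told apart. The sample labels and a figure legend of the paper give 48 h of treatment, while its methods give a shorter time. Whether both arrays of a group stem from different cultures is stated nowhere, so each p-value covers only the array-to-array spread, and that spread may be technical.

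For each gene, the log2 fold change with Pao extract in BPH-1 cells was subtracted from that in WPMY-1 cells. This difference of responses is above 0 where WPMY-1 cells responded more positively and below 0 where they responded more negatively. Genes were kept where at least 1 group mean (vehicle or Pao extract) reached 6 on the log2 scale in BPH-1 cells and at least 1 did so in WPMY-1 cells. Of 22465 named genes, 9465 met this rule, and they are called shared genes below. A further 794 genes reached 6 in BPH-1 cells only and 631 in WPMY-1 cells only, and they are described apart. The remaining 11575 were below 6 in every group. Just inside the limit lay *USP2-AS1* and *ANKDD1A*, both with a deciding group mean of 6.0002 and differences of −0.01 and 0.08. Just outside it lay *RNA5SP195* (5.9993, difference −0.19) and *PARP16* (5.9994, difference 0.10).

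Several systems recur among the genes below. Transforming growth factor beta (TGF-beta) signals through SMAD proteins and is known in stromal cells for inducing matrix and contractile genes. The coactivators YAP and TAZ act on DNA through TEAD factors, read cell shape and tension, and share with TGF-beta classic targets such as *CCN2*. Sterol synthesis is controlled by SREBP factors, which switch on nearly the whole enzyme chain from acetyl-CoA to cholesterol when cells sense a lack of sterol.

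MicroRNA genes gave the most negative difference among the shared genes (*MIR21*) and among those that reached 6 in WPMY-1 cells only (*MIR222*), so their mature sequences are shown first. They are taken from RefSeq (GRCh38.p14), read 5′ to 3′, with the seed (bases 2 to 8), which pairs with target mRNAs, in capitals. The probe sets measure RNA from the microRNA gene and were not shown to measure the mature microRNA.
hsa-miR-21-5p (chr17:59841273-59841294, plus strand): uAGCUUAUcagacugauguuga
hsa-miR-222-3p (chrX:45747036-45747056, minus strand): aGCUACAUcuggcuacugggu
hsa-miR-221-3p (chrX:45746180-45746202, minus strand): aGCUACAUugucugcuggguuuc
hsa-miR-548w (chr16:26025246-26025268, plus strand): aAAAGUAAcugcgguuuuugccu
hsa-miR-644a (chr20:34466385-34466403, plus strand): aGUGUGGCuuucuuagagc
hsa-miR-4530 (chr19:39409629-39409646, minus strand): cCCAGCAGgacgggagcg
hsa-miR-662 (chr16:770243-770263, plus strand): uCCCACGUuguggcccagcag
Of these, miR-221-3p and miR-222-3p carry the same seed, and the other 5 seeds differ from it and from each other. The first 5 belong to genes with a difference below 0, and the last pair to genes with a difference above 0.

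The arrays were alike in scale. Their medians over all probe sets lay between 4.503 and 4.573 on the log2 scale, and the correlations of arrays within a group lay between 0.9947 and 0.9966. The median of the epithelial markers was 8.59 to 8.69 on the BPH-1 arrays and 5.22 to 5.60 on the WPMY-1 arrays, and that of the stromal markers was 5.58 to 5.77 and 7.07 to 7.43. Leukocyte markers (4.48 to 4.69) and endothelial markers (3.63 to 3.81) were low on every array. Because values around 4.5 are also the median of the whole array, they are read here as near background.

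No difference of responses passed limma's test at an adjusted p of 0.05, among the 9465 shared genes or among all 22465 genes (0% called). The lowest adjusted p among the shared genes was 0.327 (limma, *HERC4*). At an unadjusted p under 0.05, 232 shared genes (2.45%) were higher and 281 (2.97%) lower in WPMY-1 cells, against 4.53% and 2.6% of all genes, so the share for lower values was near the background and the share for higher values under it. Without 1 array the counts ran from 85 (second BPH-1 vehicle array left out) to 573 and from 119 (first WPMY-1 vehicle array left out) to 716, both highest without the second WPMY-1 vehicle array. With 2 arrays a group, an exact permutation of the treatment labels within each line has 36 arrangements and cannot give a 2-sided p under 0.0556. The values below therefore describe sizes, and the array values show how far each exceeded its own spread.

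By size, 22 shared genes (0.232%) had a difference of at least 1.4-fold above 0 and 82 (0.866%) one below 0, against 0.556% and 1.05% of all genes. The limit of 1.4-fold, 0.49 on the log2 scale, is the cutoff the study used for its arrays and carries no test here. *LOC729737* (−0.49) was the last gene inside it and *ASPM* (−0.48), a spindle gene, the first outside. The rule asks for 6 in only 1 group of a line. Of the 22, 6 had some group mean under 6, and of the 82, 19 did. Among them were *MIR21*, *FBXO32*, *LIPG*, *CXADR*, *HSD17B7P2*, *S1PR2*, *ATXN1*, *PGM2L1*, *CHML* and *RBMS3*. With all 4 group means at 6 or more, 9023 genes remained, 16 of them past 1.4-fold above 0 and 63 below. The median difference of the shared genes was −0.01, and 90% of them lay between −0.29 and 0.24. With each array centred on its own median the split was 12 higher and 152 lower. Without the second WPMY-1 vehicle array it was 88 and 278, without the first WPMY-1 vehicle array 19 and 45, without the first WPMY-1 Pao array 59 and 227, without the first BPH-1 vehicle array 55 and 174, and without the second BPH-1 Pao array 44 and 143.

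The genes past 1.4-fold were seldom ones that both lines moved strongly. Of the 82 with a difference below 0, 70 had a lower mean with Pao extract in WPMY-1 cells and a higher mean in BPH-1 cells, and 32 passed 1.4-fold in WPMY-1 cells alone. Another 6 passed it in BPH-1 cells alone, 43 in neither line, and *MIR21* in both lines with opposite signs. Of the 22 with a difference above 0, 14 had a higher mean in WPMY-1 cells and a lower one in BPH-1 cells, and 7 were higher in both. Choosing genes by the difference favours opposite signs in the lines, so these sign counts are not separate evidence. Among all genes, Pao extract shifted 0.392% by 1.4-fold upward and 0.632% downward in WPMY-1 cells, and 0.236% and 0.0623% in BPH-1 cells. In vehicle-treated cells, 58 of the 82 were higher in WPMY-1 than in BPH-1 cells (70.7%), against 50.8% of all shared genes. The vehicle arrays are part of the difference, so choosing genes by it favours such a gap, and the count is not separate evidence. The median gap, WPMY-1 minus BPH-1, was 0.31 with vehicle and −0.37 with Pao extract for the 82. For the 22 it was −0.26 and 0.24. For each gene, the gap with Pao extract minus that with vehicle equals the difference of responses. The shift between these medians therefore follows from the choice of genes.

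**Figure D1:**
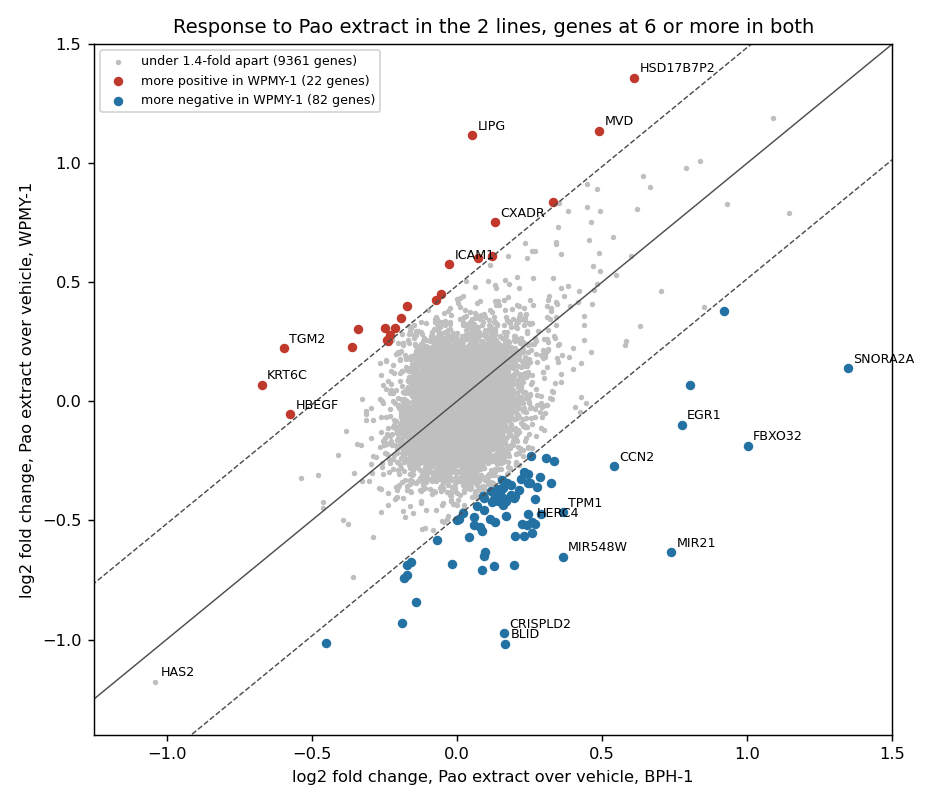
Log2 fold change with Pao extract in BPH-1 cells (horizontal axis) and WPMY-1 cells (vertical axis) for the 9465 shared genes, 1 point a gene. The solid line marks equal responses and the dashed lines a 1.4-fold difference, with 22 genes above and 82 below; most of the latter lie where the WPMY-1 change is negative and the BPH-1 change is small and positive.

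Overlap between single arrays was checked by taking the 4 differences of a Pao array and a vehicle array in each line. In 768 shared genes (8.11%) all 4 WPMY-1 differences lay above all 4 of BPH-1, and in 917 (9.69%) all lay below, against 15.2% and 7.21% of all genes. Among the genes past 1.4-fold, 18 of the 22 and 56 of the 82 had no such overlap, which the size of the difference partly fixes. These differences cross replicate numbers, which were not taken as pairs. Leaving out 1 array raised both counts, to at most 2521 and 2416 without the second WPMY-1 vehicle array, because fewer differences are then left to overlap.

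*MIR21*, the gene of a microRNA widely studied as a repressor of growth inhibitors, had the most negative difference. Its probe set read 6.75 and 7.28 in vehicle-treated BPH-1 cells, 7.36 and 8.15 with Pao extract, 6.65 and 6.15 in vehicle-treated WPMY-1 cells, and 5.96 and 5.57 with Pao extract. Both Pao arrays were above both vehicle arrays in BPH-1 cells and below both in WPMY-1 cells, so the 2 lines did not overlap in their changes. An exact permutation test gave p = 0.0556, the smallest it can give, as for *HERC4* and *TPM1* below. These genes were picked by the size of the same difference, so this p is not separate support. The same permutation test gave p = 0.111 for *FBXO32*, 0.167 for *BLID* and 0.278 for *LIPG*. The *MIR21* means were 0.74 higher in BPH-1 and 0.63 lower in WPMY-1 cells, a difference of −1.37 (SE 0.41, limma adjusted p = 0.686).

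*FBXO32* encodes atrogin-1, a substrate receptor of an SCF ubiquitin ligase and a classic FOXO target. It read 5.57 and 5.61 in vehicle-treated BPH-1 cells and 6.60 and 6.59 with Pao extract, and in WPMY-1 cells 8.18 and 7.80 with vehicle and 8.03 and 7.58 with Pao extract. The BPH-1 groups were clearly apart, while the WPMY-1 groups overlapped at a level that was higher throughout. In BPH-1 cells it counts as expressed through its Pao group alone. The difference was −1.19 (SE 0.22, limma adjusted p = 0.557), made up of 1.00 for BPH-1 and −0.19 for WPMY-1. The paper reports higher *FBXO32* mRNA with Pao extract in both lines by qRT-PCR, unlike the WPMY-1 arrays here.

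A further 2 coding genes past 1.4-fold in BPH-1 cells alone were *EGR1* and *CCN2*. *EGR1*, an immediate early zinc finger factor, read 6.33 and 7.38 with vehicle and 7.59 and 7.66 with Pao extract in BPH-1 cells, against 7.50 and 7.93 and then 7.69 and 7.54 in WPMY-1 cells. Its difference of −0.87 (SE 0.41) rested largely on the first BPH-1 vehicle array, which lay about 1 log2 unit under the second. *CCN2*, the matricellular protein also called connective tissue growth factor, read 7.0 and 7.24, then 7.32 and 8.00 in BPH-1 cells, and 9.52 and 9.15, then 9.26 and 8.86 in WPMY-1 cells. Its difference was −0.81 (SE 0.33), and the changes in the 2 lines overlapped at their edges. The noncoding genes with this pattern were *SNORA2A*, *SCARNA3* and *HIF1A-AS2*. Each of them had some group mean under 6 and overlapping array differences. *SNORA2A* (−1.21, SE 0.90) had arrays of 1 group more than 1 log2 unit apart. *SCARNA3* (−0.74) stood at −0.30 without the first BPH-1 vehicle array. *HIF1A-AS2* (−0.54) turned to 0.26 without the first BPH-1 Pao array.

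*CRISPLD2*, which encodes a secreted glycoprotein, was among the large differences that came from WPMY-1 cells. It read 8.98 and 8.41 with vehicle and 8.06 and 7.39 with Pao extract there, against 6.97 and 6.94 and then 7.19 and 7.04 in BPH-1 cells. Both WPMY-1 Pao arrays were below both vehicle arrays, and both BPH-1 Pao arrays above theirs. The difference was −1.14 (SE 0.32, limma adjusted p = 0.686). *BLID*, named for a BH3-like motif and known as an inducer of cell death, had a difference of similar size (−1.18, SE 0.52), but its array differences overlapped, and the WPMY-1 vehicle arrays alone read 7.69 and 6.90.

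*HERC4* and *ATXN1* had smaller differences with much less spread. *HERC4*, a HECT-type ubiquitin ligase, read 7.74 and 7.65, then 7.95 and 7.96 in BPH-1 cells, and 8.68 and 8.59, then 8.14 and 8.11 in WPMY-1 cells. Within every group its arrays lay within 0.1 of each other, and the changes of the 2 lines had opposite signs. The difference was −0.76 (SE 0.10, limma adjusted p = 0.327). *ATXN1*, the gene of the transcriptional regulator ataxin-1, read 5.71 and 5.79, then 6.05 and 6.03 in BPH-1 cells, and 6.95 and 6.78, then 6.44 and 6.34 in WPMY-1 cells, a difference of −0.76 (SE 0.11, limma adjusted p = 0.379). In BPH-1 cells only its Pao group reached 6. *FRMD6* (−0.54, SE 0.10), which acts upstream in the Hippo pathway, and *PPP2R3A* (−0.47, SE 0.09), a regulatory subunit of protein phosphatase 2A, were the next lowest by p on this side among the coding genes not already named.

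The other coding genes among the 15 most negative differences were *TAS2R30*, *TPM1*, *SAMD9*, *GBP1*, *TGFB2*, *SKIL*, *CHML* and *PGM2L1*, from −0.88 to −0.68. *TAS2R30* (−0.88, SE 0.31) is a bitter taste receptor from a cluster of near-identical genes, and *TAS2R43* of the same family stood at −0.61, so the signal of each is uncertain. *CHML* (−0.70, SE 0.35), a Rab escort protein, and *TGFB2* (−0.74, SE 0.38), a TGF-beta ligand, had overlapping array differences. *PGM2L1* (−0.68, SE 0.25), which makes glucose 1,6-bisphosphate, did not. Outside the top 15, *IGF1R*, the receptor of insulin-like growth factor 1, read 8.71 and 8.48 with vehicle and 8.21 and 7.89 with Pao extract in WPMY-1 cells and between 8.40 and 8.52 on all 4 BPH-1 arrays (difference −0.63, SE 0.16). *FGF2*, the basic fibroblast growth factor, had a like pattern at −0.64 (SE 0.18), with 10.03 and 9.76 and then 9.55 and 9.23 in WPMY-1 cells and 7.53 to 7.76 in BPH-1 cells.

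**Figure D2:**
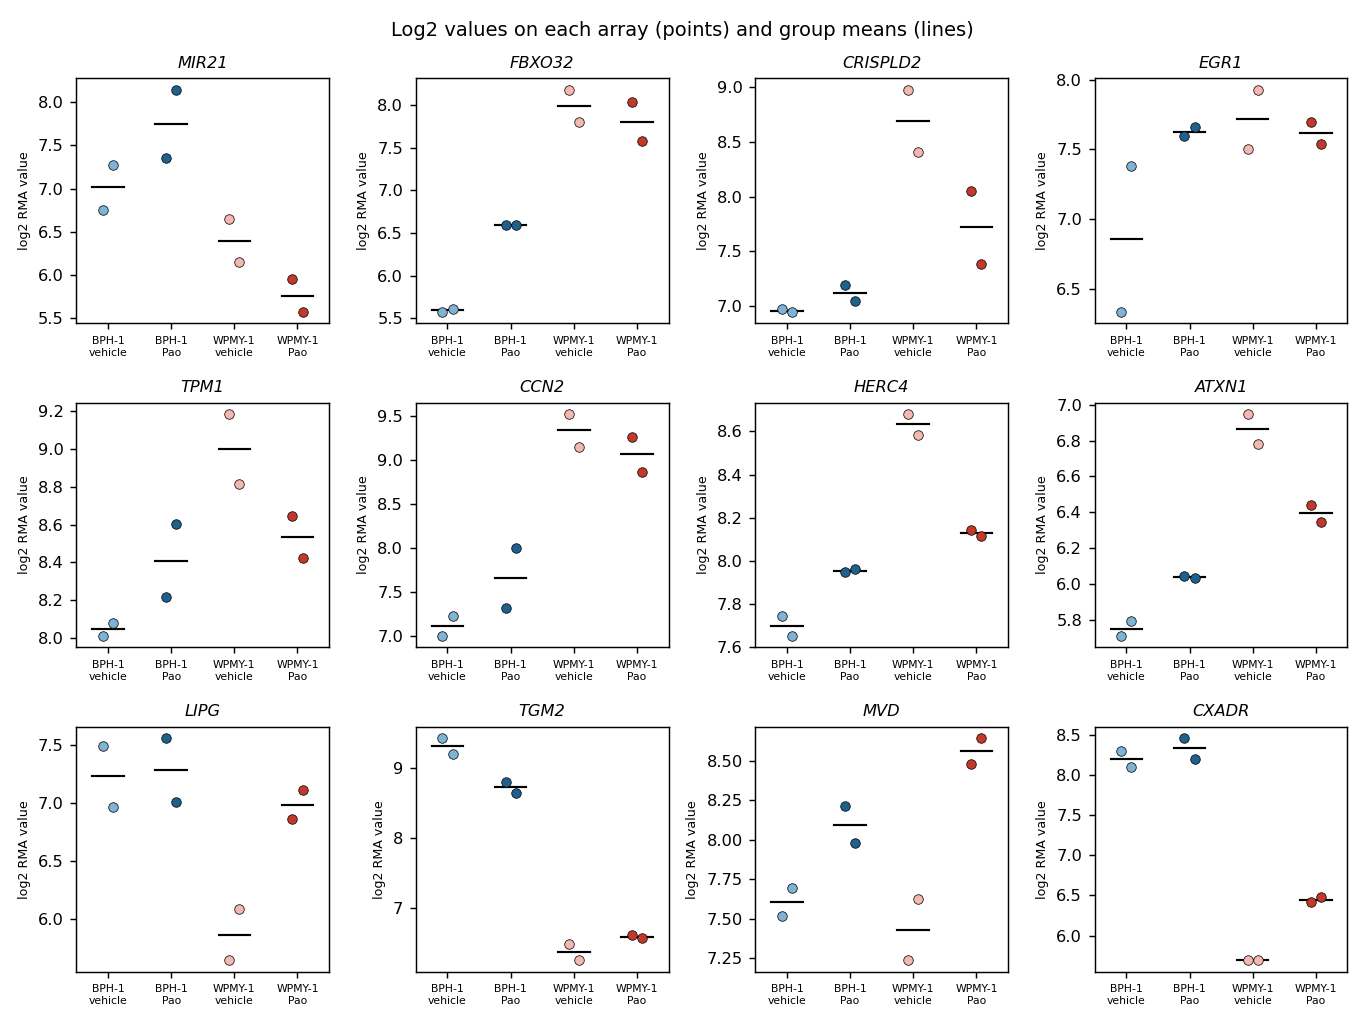
Log2 RMA values of 12 shared genes on each of the 8 arrays (points) with the mean of each group (lines); each panel has its own vertical axis, which does not start at 0. With Pao extract *MIR21* was higher in BPH-1 and lower in WPMY-1 cells, *FBXO32* was separated in BPH-1 cells only, and *LIPG* and *CXADR* in WPMY-1 cells only.

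On the positive side, *LIPG*, which encodes endothelial lipase, a phospholipase acting on high-density lipoprotein, led the shared genes. It read 5.65 and 6.08 in vehicle-treated WPMY-1 cells and 6.86 and 7.11 with Pao extract, against 7.49 and 6.97 and then 7.56 and 7.01 in BPH-1 cells. Every WPMY-1 Pao array was above every WPMY-1 vehicle array, while the BPH-1 groups covered the same range. In WPMY-1 cells only the Pao group reached 6, as for *CXADR*. The difference was 1.06 (SE 0.33, limma adjusted p = 0.686). *CXADR*, the coxsackievirus and adenovirus receptor of epithelial junctions, had a similar pattern, with 5.69 and 5.70 and then 6.42 and 6.48 in WPMY-1 cells and 8.10 to 8.47 in BPH-1 cells (difference 0.62, SE 0.14). So did *ICAM1*, a leukocyte adhesion molecule and NFκB target, with 8.03 and 8.23 and then 8.68 and 8.73 in WPMY-1 cells and overlapping BPH-1 groups (0.60, SE 0.15).

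The genes *TGM2*, *KRT6C* and *HBEGF* reached a positive difference from the other side, through lower values in BPH-1 cells. *TGM2*, tissue transglutaminase, which cross-links proteins, read 9.43 and 9.20 with vehicle and 8.81 and 8.64 with Pao extract on the BPH-1 arrays, and 6.48 and 6.24, then 6.60 and 6.56 in WPMY-1 cells. Its groups were apart in both lines, in opposite directions, and the difference was 0.82 (SE 0.16, limma adjusted p = 0.557). *HBEGF*, a membrane-anchored ligand of the EGF receptor, read 8.25 and 8.24, then 7.82 and 7.52 in BPH-1 cells and 7.71 to 7.78 on all WPMY-1 arrays (0.52, SE 0.13). *KRT6C*, a keratin of stressed squamous epithelium, read 8.47 and 8.95, then 7.79 and 8.29 in BPH-1 cells and 6.30 to 6.41 in WPMY-1 cells (0.74, SE 0.26), but its sequence is nearly that of other keratin 6 genes, so the source of its signal is uncertain.

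The other coding genes among the 15 most positive differences lay between 0.50 and 0.65. *FKBPL* (0.57, SE 0.10), an immunophilin-like cochaperone, *S1PR2* (0.56, SE 0.13), a sphingosine 1-phosphate receptor, *PHLDA2* (0.51, SE 0.21), an imprinted growth regulator, and *TIMM29* (0.50, SE 0.13), of the mitochondrial inner membrane import machinery, had no overlap of array differences. Overlap was present in *FST* (0.65, SE 0.42, 0.23 without the second BPH-1 Pao array), which encodes the activin-binding protein follistatin, in *PTX3* (0.59, SE 0.35, 0.14 without that array), a secreted pentraxin, and in *ENO2* (0.53, SE 0.30, 0.17 without the second WPMY-1 Pao array), a glycolytic enolase. *MTNR1B* (0.48, SE 0.11), a melatonin receptor, and *ASPHD2* (0.41, SE 0.09) were just under 1.4-fold and among the 5 lowest p on this side. The arrays of *MTNR1B* all lay between 5.80 and 6.21, so it is among the dimmest of the shared genes.

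Of 21 measured sterol synthesis genes 20 were shared, and with Pao extract all 20 had a higher mean in WPMY-1 cells and 19 in BPH-1 cells, where *PMVK*, phosphomevalonate kinase, stood at −0.04. Of the 20, 18 had a difference above 0 and 2 below, 2 past 1.4-fold above 0, with a median of 0.21 against −0.01 over all shared genes. The median log2 fold change was 0.74 in WPMY-1 cells and 0.49 in BPH-1 cells. The median difference was 0.06 without the second BPH-1 Pao array, with 13 above 0 and 7 below, 0.09 without the first BPH-1 vehicle array, 0.11 without the first WPMY-1 vehicle array and 0.39 without the first BPH-1 Pao array. *MVD*, mevalonate diphosphate decarboxylase, read 7.24 and 7.62 with vehicle and 8.48 and 8.65 with Pao extract in WPMY-1 cells, and 7.52 and 7.69, then 8.22 and 7.98 in BPH-1 cells. Both lines were separated by treatment, the WPMY-1 arrays more widely (difference 0.64, SE 0.20). *TM7SF2* (0.51, SE 0.24), a sterol reductase, and *LSS* (0.46, SE 0.19), lanosterol synthase, had higher means in both lines, with overlapping array differences.

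Within WPMY-1 cells, 7 shared genes passed limma's test of the response itself, and 4 of them belong to sterol or fatty acid metabolism by the lists used. These were *MVD* (1.14, adjusted p = 0.0497), *ERG28* (0.66, adjusted p = 0.0488), a scaffold of sterol demethylation, *ACSS2* (0.83, adjusted p = 0.0497), which makes acetyl-CoA from acetate, and *FADS2* (0.60, adjusted p = 0.0497), a fatty acid desaturase, all by limma. The others that rose or fell were *HSD17B7P2* (1.36, adjusted p = 0.0201), *CDH6* (−0.73, adjusted p = 0.0488) and *PAPPA* (−0.74, adjusted p = 0.0497), again by limma. The 7 were 5 higher (0.0528%) and 2 lower (0.0211%), against 0.0445% and 0.0223% of all genes, so passing was about as frequent as in the background. Without adjustment, 555 shared genes were above vehicle at p under 0.05 in WPMY-1 cells (5.86%, all genes 6.51%) and 620 below it (6.55%, all genes 4.67%). No shared gene passed in BPH-1 cells (0% of all genes), where limma without adjustment put 252 above vehicle (2.66%, all genes 2.27%) and 89 below it (0.94%, all genes 1.86%). None of the 7 passed the test of the difference, whose limma adjusted p was 0.645 to 0.686. *HSD17B7P2*, a transcribed pseudogene of the sterol enzyme *HSD17B7* with which it may share signal, read 5.80 and 6.02, then 7.17 and 7.36 in WPMY-1 cells and 6.06 and 6.01, then 6.80 and 6.50 in BPH-1 cells, a difference of 0.75 (SE 0.17), and its vehicle mean in WPMY-1 cells was under 6. The exceptions on the sterol list were *STARD4* (−0.46, SE 0.11), a sterol transporter that read 6.70 and 6.58, then 7.58 and 7.41 in BPH-1 cells, against 7.77 and 7.80, then 8.17 and 8.19 with the WPMY-1 arrays, and *INSIG1* (−0.35), a gatekeeper of the SREBP machinery (0.02 without the first BPH-1 Pao array). Both had higher means in the 2 lines, by more in BPH-1 cells.

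Contractile and cytoskeletal genes pointed the other way. All 15 shared members of that list had a difference below 0, with 2 past 1.4-fold and a median of −0.14, where 4927 of the 9465 shared genes lay below 0. The mean was lower with Pao extract in WPMY-1 cells for all 15 (median −0.20) and in BPH-1 cells for 7 (median 0.04), and 9 of the 15 had no overlap of array differences on this side, against 9.69% of the shared genes and 7.21% of all. Values of 1 list share arrays, so these 9 are not separate trials. With a further quantile normalization 13 of the 15 lay below 0 (median −0.10), and 12 did without the first WPMY-1 Pao array. *TPM1*, the actin-binding tropomyosin 1, read 9.19 and 8.82, then 8.64 and 8.43 in WPMY-1 cells, and 8.01 and 8.08, then 8.22 and 8.60 in BPH-1 cells. The treated and untreated arrays were separated in each line and in opposite directions (difference −0.83, SE 0.22, limma adjusted p = 0.686). *CALD1* (−0.59, SE 0.20), the actin and myosin regulator caldesmon, *PDLIM5* (−0.33, SE 0.14), a PDZ and LIM adaptor of actin fibres, and *CNN2* (−0.31, SE 0.09), a calponin, showed no overlap either. By contrast *ACTA2*, smooth muscle actin, stood near 6 to 6.3 in both lines (difference −0.13), and *MYL9*, a myosin light chain, at −0.16 had overlapping array differences.

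TGF-beta targets and YAP and TAZ targets had the same sign. Of 19 shared TGF-beta targets 16 lay below 0 and 3 above, 6 past 1.4-fold, with a median of −0.18, and of 20 shared YAP and TAZ targets 17 lay below 0 and 3 above, 4 past 1.4-fold, with a median of −0.13. Without 1 array the TGF-beta median ran from −0.36 (first BPH-1 Pao array) to −0.12 (second BPH-1 Pao array), and the YAP and TAZ median from −0.22 (first BPH-1 vehicle array) to −0.08 (first WPMY-1 vehicle array). These lists and the contractile list share 5 genes on more than 1 of them, and together hold 49 genes, of which 43 lay below 0. None passed the test of the difference. *SKIL*, a SMAD corepressor that TGF-beta induces, read 8.74 and 8.27, then 8.23 and 7.75 in WPMY-1 cells and 7.80 and 7.73, then 7.97 and 8.00 in BPH-1 cells (−0.74, SE 0.25), without overlap between the lines. *IGFBP3*, an IGF-binding protein, was lower in WPMY-1 cells, at 8.64 and 8.48 and then 8.06 and 7.90, and overlapping in BPH-1 cells (−0.51, SE 0.21). *THBS1*, thrombospondin 1 and an activator of latent TGF-beta, had lower means in both lines, with log2 changes of −1.01 in WPMY-1 and −0.45 in BPH-1 cells (difference −0.56, SE 0.37, −0.12 without the second WPMY-1 Pao array). *RBMS3* (−0.60, SE 0.26), an RNA-binding protein, and *CCN1* (−0.45, SE 0.30), the paralogue of *CCN2*, had higher means in BPH-1 cells and lower or equal ones in WPMY-1 cells, with overlap.

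The promoter of *CCN2* is a textbook example of TEAD binding, and its letters are shown for that reason. The core letters GGAATG were searched on both strands in the 250 bases before the start of each gene in RefSeq (GRCh38.p14), where 11.9% of 27305 promoters held a match. Among the 15 coding genes with the most negative differences, 13 had a promoter in the table and 2 held a match, *CCN2* and *TGFB2*, and none did of the 10 promoters among the 15 most positive. *CCN2* held 3 matches, between 169 and 90 bases before the start, in capitals in the stretch below.
CCN2 promoter (chr6:131951456-131951547, minus strand): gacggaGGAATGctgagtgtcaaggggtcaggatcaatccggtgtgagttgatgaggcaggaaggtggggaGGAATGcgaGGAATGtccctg
The AP-1 letters TGANTCA were in 6.6% of all promoters, in 2 of the 10 (*FST* and *ENO2*) and in 0 of the 13, and the NRF2 letters TGACNNNGC in 11% of all and in none of either set. A match is a run of letters and was not tested for binding.

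FOXO targets and interferon-stimulated genes also leaned below 0. Of 10 shared FOXO targets 9 lay below 0 (median −0.17), but *FBXO32* alone passed 1.4-fold. Without the second BPH-1 Pao array 6 lay below 0 (median −0.04), and without the first BPH-1 vehicle array 7 (median −0.09). Of 14 shared interferon-stimulated genes 10 lay below 0 and 4 above (median −0.09), 3 past 1.4-fold. *SAMD9*, an antiviral factor, read 8.19 and 8.27, then 8.53 and 8.47 in BPH-1 cells and 7.54 and 7.40, then 7.16 and 6.74 in WPMY-1 cells (−0.78, SE 0.18), and its neighbour and paralogue *SAMD9L* stood at −0.55 (SE 0.15). *GBP1*, an interferon-induced GTPase, read 6.85 and 6.91, then 7.15 and 7.10 in BPH-1 cells and 8.48 and 7.99, then 7.87 and 7.56 in WPMY-1 cells (−0.76, SE 0.22). All 3 were separated by treatment in opposite directions in the 2 lines. *IFIT3* (−0.32, SE 0.24), which restrains viral RNA, had higher means in both.

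**Figure D3:**
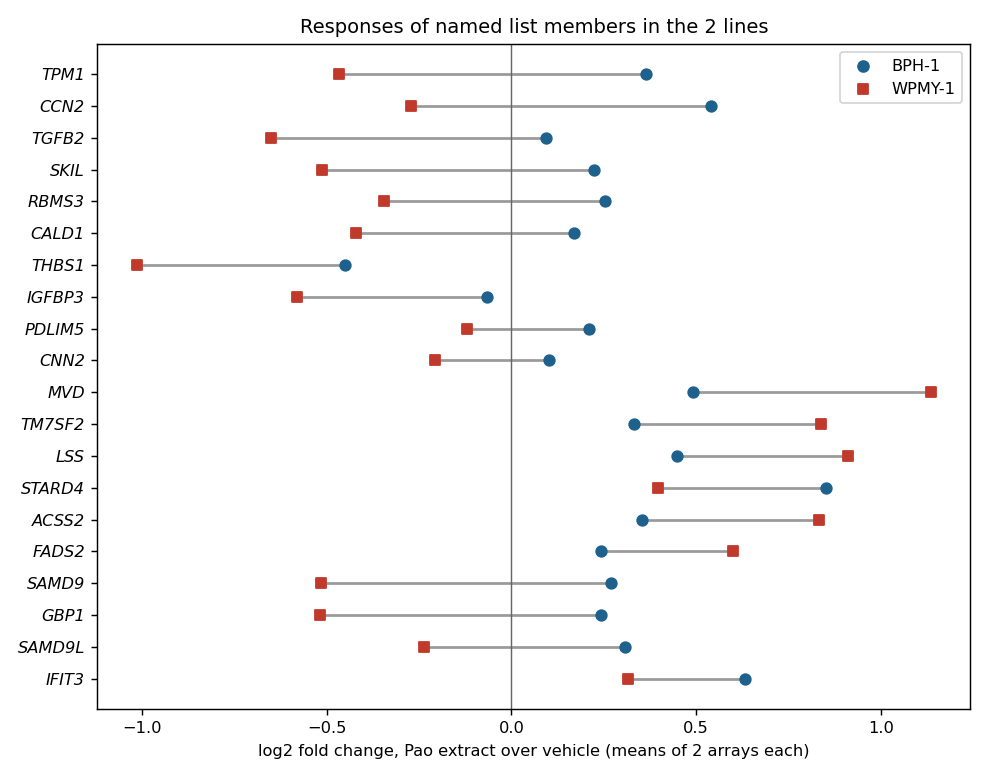
Log2 fold change with Pao extract (horizontal axis) in BPH-1 cells (circles) and WPMY-1 cells (squares) for 20 named members of the contractile, TGF-beta, YAP and TAZ, sterol, fatty acid and interferon lists, each from means of 2 arrays. *TPM1* ran from 0.36 in BPH-1 to −0.47 in WPMY-1 cells, while *MVD* was above 0 in both, at 0.49 and 1.14.

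NFκB targets, which the study examined in both lines, had mostly small differences. Of 22 shared members 15 lay above 0 and 7 below, with 1 past 1.4-fold (*ICAM1*) and a median of 0.12, and of 12 shared chemokines and cytokines 9 lay above 0 and 3 below (median 0.12), with *INHBA*, an activin subunit, past 1.4-fold below 0 (−0.52, SE 0.26). With centred arrays 12 of the 22 and 7 of the 12 lay above 0 (both medians 0.05), and without the first WPMY-1 vehicle array also 12 and 7 (medians 0.03 and 0.02). With Pao extract, 10 of the 22 NFκB targets had a lower mean in WPMY-1 cells (median log2 change 0.05) and 15 in BPH-1 cells (median −0.05). Of the 12 chemokines and cytokines, 6 and 10 did (medians −0.10 and −0.17). The lists include genes that the study displayed from these arrays, so their direction is not independent evidence. *CXCL5* (0.22, SE 0.22) and *CXCL6* (0.04, SE 0.14), neutrophil-attracting chemokines, had lower means in both lines, as did *TNC* (−0.11, SE 0.28), the matrix protein tenascin-C. *HAS2*, hyaluronan synthase 2, read 10.14 and 9.35, then 9.02 and 8.40 in BPH-1 cells and 9.78 and 10.22, then 8.72 and 8.93 in WPMY-1 cells. Its Pao arrays were below the vehicle arrays in each line, by a mean log2 change of −1.04 and −1.18, and the difference of −0.14 was under its SE of 0.40. *TNFAIP3* (0.30, SE 0.17), a brake on NFκB, had overlapping array differences.

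Growth factor genes and adhesion genes gave mixed signs. Of 16 shared growth factor and guidance ligands 10 lay below 0 and 6 above (median −0.10), with *FGF2* and *FST* past 1.4-fold in opposite directions. The insulin-like growth factor axis had 5 of its 10 shared members on each side (median −0.02), with *IGF1R* and *IGFBP3* past 1.4-fold below 0. *PAPPA*, the protease that frees IGF from its binding proteins, read 8.72 and 8.81, then 8.10 and 7.96 in WPMY-1 cells and 5.97 and 6.17, then 5.67 and 5.75 in BPH-1 cells, lower in both lines (difference −0.38, SE 0.13). In BPH-1 cells it counts as expressed through its vehicle group alone. Of 14 shared cadherins and adhesion genes 9 lay below 0 and 5 above (median −0.13). *CDH6*, a type II cadherin, read 7.78 and 7.83, then 7.14 and 7.01 in WPMY-1 cells and 8.30 and 8.42, then 8.12 and 8.26 in BPH-1 cells (−0.56, SE 0.12), while *ITGA6* (0.41, SE 0.12) and *ITGB4* (0.31, SE 0.13), which pair as the laminin receptor of hemidesmosomes, lay above 0 without overlap. Among EGF receptor ligands and MAPK feedback genes 9 of 16 lay above 0 (median 0.05), while with centred arrays 8 lay on each side (median −0.01), with *HBEGF* past 1.4-fold and *DUSP5* (0.36, SE 0.12), an ERK phosphatase, next.

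Matrix genes did not lean to a side as a list. Of 24 shared collagens and matrix genes 12 lay above 0 and 12 below, with a median of 0.01 and *THBS1* past 1.4-fold, although *LOX* (−0.38, SE 0.14), which cross-links collagen, *FN1* (−0.32, SE 0.15), fibronectin, and *COL1A1* (−0.31, SE 0.11) were lower in WPMY-1 cells without overlap of the array differences. The stromal markers as a whole, 8 of them shared, had a median difference of −0.12 with 6 below 0, and the 4 shared epithelial markers one of 0.06 with 3 above 0. On the arrays the stromal marker median was 7.43 and 7.19 in vehicle-treated and 7.15 and 7.07 in Pao-treated WPMY-1 cells, and the part of this shift in any result was not tested. Immediate early factors lay above 0 in 8 of 12 (median 0.09), but in 5 without the first WPMY-1 vehicle array (median −0.04), and *EGR1*, the one past 1.4-fold, lay below 0.

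In lysosome and autophagy genes the means were higher in WPMY-1 cells for all 22 shared members and in BPH-1 cells for 18, and 16 differences lay above 0 (median 0.09, −0.01 without the first WPMY-1 vehicle array). *WIPI1* (0.41, SE 0.17), an autophagosome protein, and *NEU1* (0.37, SE 0.22), lysosomal sialidase, were the most positive and *FNIP1* (−0.33, SE 0.12), of the lysosomal mTOR pathway, the most negative. Glycolysis and hypoxia genes lay above 0 in 24 of 30 (median 0.07), a sign that was lost with centred arrays, where 15 lay on each side, and turned to −0.08 without the second WPMY-1 Pao array. *ENO2* was the one past 1.4-fold there, followed by *PFKFB4* (0.33, SE 0.12), a regulator of glycolytic flux. Mitosis and S phase genes lay below 0 in 23 of 37 (median −0.04, 0.01 with a further quantile normalization), with *CENPE*, a kinesin of the kinetochore, past 1.4-fold (−0.56, SE 0.39, −0.16 without the first WPMY-1 vehicle array) but overlapping. Keratins and squamous genes lay above 0 in 6 of 8 (median 0.06), or in 4 with centred arrays (median −0.01), with *KRT6C* past 1.4-fold.

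The remaining lists held no gene past 1.4-fold in either direction. Their median differences were 0.03 for 11 fatty acid genes, −0.01 for 14 NRF2 targets, −0.01 for 28 genes of ATF4 and the integrated stress response, 0.01 for 19 endoplasmic reticulum chaperones and −0.01 for 12 heat shock genes. They were 0.01 for 17 p53 targets, 0.03 for 10 WNT ligands and inhibitors, −0.04 for 6 genes of the AhR and xenobiotic response, −0.00 for 32 respiratory chain genes and 0.05 for 30 proteasome genes. The proteasome median was −0.02 with centred arrays. *GDF15*, a stress cytokine on the p53 and stress lists, read 6.22 and 6.94, then 7.04 and 7.52 in BPH-1 cells and 5.75 and 6.03, then 6.18 and 6.52 in WPMY-1 cells, above vehicle on both Pao arrays in each line (difference −0.24, SE 0.35). In WPMY-1 cells it counts as expressed through its Pao group alone.

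**Figure D4:**
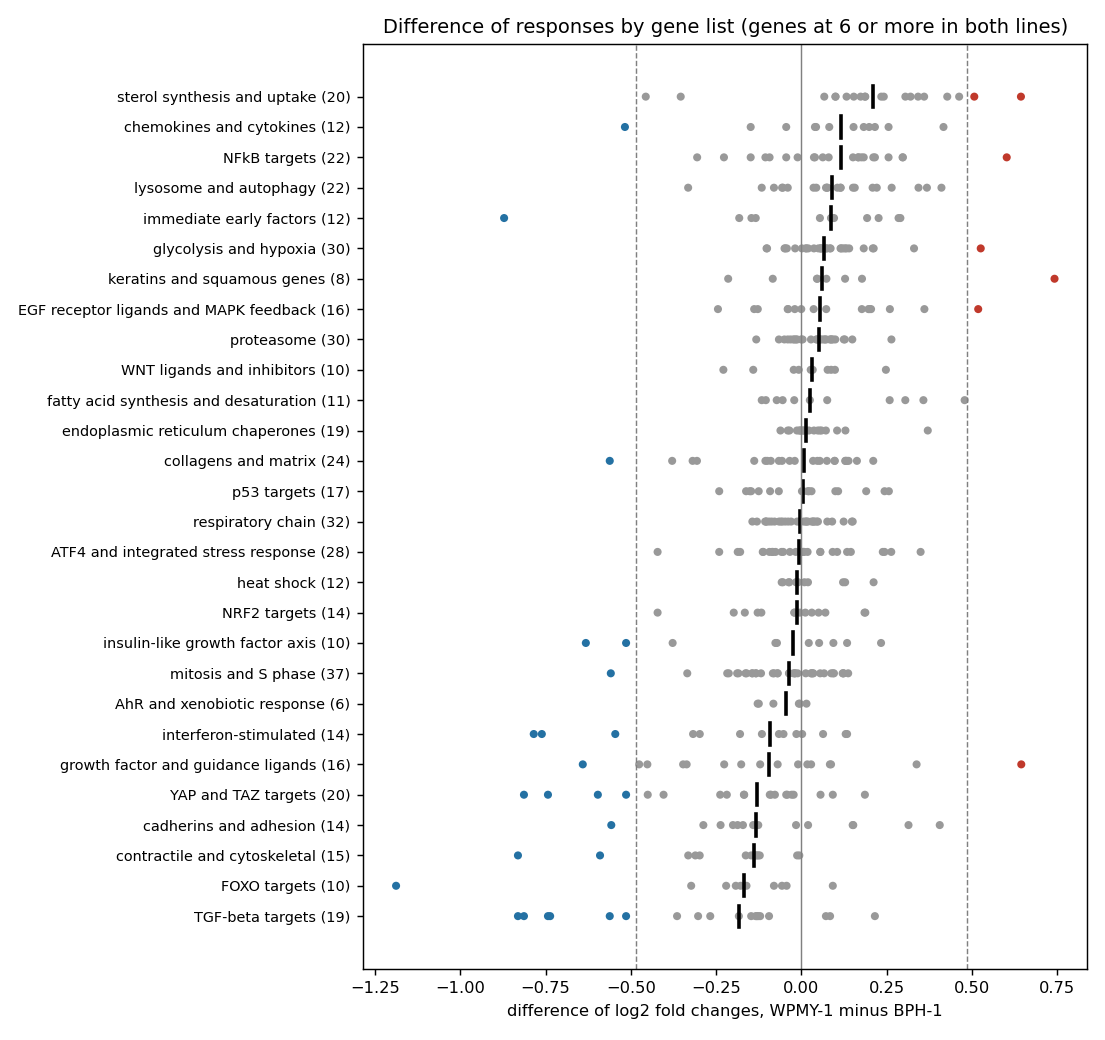
Difference of responses, WPMY-1 minus BPH-1 (horizontal axis, log2), for each shared gene (points) on 28 gene lists, with the list median (black bar) and the number of shared genes in parentheses; dashed lines mark 1.4-fold and coloured points lie past it. The sterol list has the highest median (0.21) and the TGF-beta list the lowest (−0.18).

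Short noncoding RNA genes were also among the most negative values. Of the 82 genes past 1.4-fold below 0, 46 were coding and 12 were microRNA genes. Of 191 shared microRNA genes, 129 lay above 0 (median 0.13), yet 12 passed 1.4-fold below 0 and 3 above. Over all shared genes 0.866% passed it below 0 and 0.232% above, and over all genes 1.05% and 0.556%. Families of near-identical noncoding copies, picked out here after their values were seen, had a single sign in 3 cases. The coding *TAS2R* family had one too, with all 3 shared members below 0. All 24 shared *MIR548* genes lay below 0 (median −0.44), at −0.65 to −0.26 in WPMY-1 and −0.05 to 0.36 in BPH-1 cells, and 6 passed 1.4-fold. All 8 shared *RNU7* genes, U7 small nuclear RNA pseudogenes, lay between −0.72 and −0.45. All 6 shared *SNAR* genes lay above 0 (median 0.34), as *SNAR-C3* (0.54, SE 0.14) and *SNAR-C4* (0.52, SE 0.14) show, while 103 genes of the *RNA5SP* family, 5S ribosomal RNA pseudogenes, had a median of 0.07. Probes for such copies can read one another, so the genes of a family are not separate measurements.

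*MIR548W* (−1.02, SE 0.27), whose seed is printed above, read 7.59 and 7.18, then 6.74 and 6.73 in WPMY-1 cells and 7.35 and 6.74, then 7.33 and 7.49 in BPH-1 cells. The WPMY-1 groups were apart and the BPH-1 groups overlapped. *MIR644A* (−0.81, SE 0.31) read 6.81 and 6.39, then 6.12 and 5.98 in WPMY-1 cells and overlapped in BPH-1 cells. *MIR221* read 7.25 and 6.71, then 6.80 and 6.32 in WPMY-1 cells and 6.46 and 5.87, then 6.31 and 6.26 in BPH-1 cells, overlapping in both (−0.54, SE 0.34). *MIR4530* (0.51, SE 0.11) and *MIR662* (0.50, SE 0.15) lay on the other side, with no overlap of array differences and levels near 6 throughout. *HNRNPU-AS1* (−0.82, SE 0.29), an antisense transcript whose signal may not be told apart from that of its partner, completes the noncoding genes with the largest differences.

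Genes that reached 6 in 1 line only were kept apart, because a value near background bounds how far a gene can be lower. In that line 1 group mean of 6 or more sufficed, so a gene could enter through the group where it was high. Such entry favours a difference, and the shares that follow only describe sizes. Of the 794 in BPH-1 cells only, 15 (1.89%) lay past 1.4-fold above 0 and 11 (1.39%) below, and of the 631 in WPMY-1 cells only, 10 (1.58%) and 39 (6.18%), against 0.556% and 1.05% of all genes. The long noncoding RNA *UCA1* read 9.38 and 9.26, then 9.93 and 9.84 in BPH-1 cells, and 4.72 and 4.69, then 4.26 and 3.92 in WPMY-1 cells, where it was near background. Its difference of −1.18 (SE 0.16, limma adjusted p = 0.327) is made up of 0.56 for BPH-1 and −0.62 for WPMY-1, and the latter, between values near background, is not read as a change of expression. *PTGS2*, cyclooxygenase 2, read 7.89 and 8.29, then 7.16 and 7.49 in BPH-1 cells and 3.90 to 4.57 in WPMY-1 cells (1.10, SE 0.27). *MMP13*, a collagenase, read 7.97 and 7.16, then 6.80 and 6.35 in BPH-1 cells and 3.51 to 3.72 in WPMY-1 cells (1.08, SE 0.34). Both were below vehicle on each BPH-1 Pao array and stayed near background in WPMY-1 cells. *KRT5*, a basal keratin (0.72, SE 0.14), *KRT8P11*, a keratin 8 pseudogene (0.73, SE 0.17), and *SQOR*, a sulfide oxidase (0.71, SE 0.22), completed that side, and *AMTN* (−1.09), *IFNE* (−1.06), *RUNX1-IT1* (−1.02) and *ST6GALNAC2* (−0.78) the other.

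*MIR222*, which shares its seed with miR-221, had the most negative difference of the WPMY-1-only genes. It read 6.58 and 5.96, then 4.96 and 5.68 in WPMY-1 cells and 5.37 and 4.96, then 5.86 and 5.52 in BPH-1 cells, a difference of −1.47 (SE 0.39, limma adjusted p = 0.686). Its groups were apart in each line with opposite signs, at levels around 6 or under. *LXN*, the carboxypeptidase inhibitor latexin, read 7.59 and 6.99, then 6.40 and 5.98 in WPMY-1 cells and 4.46 to 5.04 in BPH-1 cells (−1.42, SE 0.30). *NREP*, a neuronal regeneration protein, read 8.28 and 7.80, then 7.15 and 6.66 in WPMY-1 cells and 5.09 to 5.31 in BPH-1 cells (−1.15, SE 0.27). *LIN7A*, a cell polarity scaffold (−1.15, SE 0.17), and *HYMAI*, an imprinted noncoding RNA (−1.22, SE 0.31), followed. *GPNMB*, a transmembrane glycoprotein of lysosome-rich cells, read 5.56 and 6.27, then 6.52 and 6.95 in WPMY-1 cells and 4.07 to 4.14 in BPH-1 cells (0.83, SE 0.30). It reached 6 through its WPMY-1 Pao group alone. The other positive ones were *VTRNA2-1* (0.86), *TCEAL7* (0.78), *IGHJ5* (0.64) and *PRECSIT* (0.57). *CXCL12*, a stromal chemokine, read 7.18 and 6.94, then 6.42 and 6.38 in WPMY-1 cells and was near background in BPH-1 cells (−0.56, SE 0.14). *DDIT3*, which encodes the stress factor CHOP, is not among the shared genes, as it did not reach 6 in both lines. It had higher means in both lines, by 0.51 and 0.43, and a difference of 0.08 (SE 0.22).

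**Figure D5:**
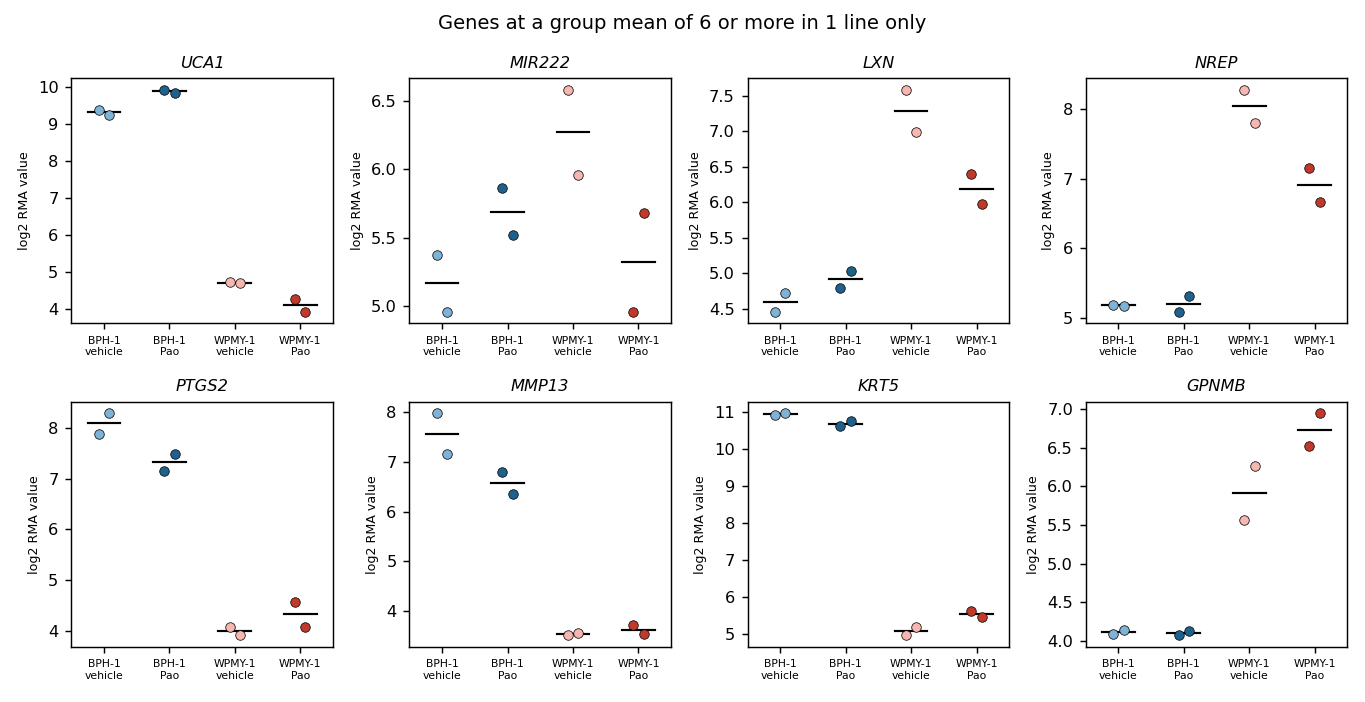
Log2 RMA values on each of the 8 arrays (points) with group means (lines) for 8 genes that reached 6 in 1 line only; each panel has its own vertical axis, which does not start at 0. *PTGS2*, *MMP13* and *KRT5* had lower Pao arrays in BPH-1 and stayed under 6 in WPMY-1 cells, and *LXN* and *NREP* were lower in WPMY-1 cells and stayed under 6 in BPH-1 cells.

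Differences were also set against a sequence feature of the shared coding genes. Of 8328 coding genes, 7028 had a promoter in RefSeq, and in 4 equal bins of promoter GC content, from low to high, the median difference was −0.04, −0.02, 0.00 and 0.01. In the lowest bin 16 genes lay past 1.4-fold below 0 and 2 above, against 4, 8 and 9 below and 2, 4 and 3 above in the others, and the part of base composition in the values above was not tested.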

How the data were processed

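RNA of vehicle- and Pao-treated cells of both lines was measured on Affymetrix human transcriptome arrays. The authors deposited log2 values after RMA (named in the submitters' processing notes), which corrects the background, brings arrays to a common distribution and summarises probes, 1 value for each of 67528 probe sets on 8 arrays. Their genome build is not given in the sources read. There are no detection calls. The number of arrays limits the precision.

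Of the probe sets, 23781 carry 1 gene symbol in the platform annotation, 1543 carry several and 42204 are not listed. Where a gene had several (479 genes), its probe set of highest mean was used, giving 22465 genes, of which 20299 matched RefSeq by gene ID. Among the shared genes, 12 have the same 8 values as another shared gene. *PDCD4* has no probe set with its symbol alone and was not analysed here.

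With limma 3.58.1 (R 4.3.3), 1 mean was estimated for each group from the 8 arrays jointly (4 residual degrees of freedom), with Benjamini-Hochberg adjustment over all genes, and the fit was tested on simulated data. The members and gene lists were chosen with earlier results of these data known, and several lists include genes that the study displayed from these arrays. Genes named are the 15 coding and up to 5 other genes with the largest differences in each direction, the 5 lowest p, the 5 largest of each line's own genes, up to 4 of each list, and genes the study names; *ACTA2*, *MYL9*, *TAS2R43*, *INSIG1*, *ERG28* and *CCN1* were added after their values were seen, as were *MIR221*, *SCARNA3* and *HIF1A-AS2*.

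The alternatives were 2 further scalings, other variance models, separate spreads, the methods' t-test carried over, replicate blocks, other gene filters, levels and cutoffs, and fits that each lacked 1 array.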

Additional observations from a re-analysis of the deposited data

How the results depend on the processing

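No gene passed an adjusted p of 0.05 for the difference of responses under any alternative run here, including each fit without 1 array; at an adjusted p of 0.25, 1 gene did, *SLCO4C1*, which is near background in BPH-1 cells (adjusted p 0.239 by limma). Counts of shared genes, higher then lower in WPMY-1 cells, moved more. At an unadjusted p under 0.05 they were 232 and 281, and 130 and 466 with centred arrays, 152 and 179 with separate spreads, and 890 and 1274 with a replicate block within each line or 709 and 948 with a replicate block shared by both lines. Same-numbered arrays deviated together (r from 0.198 to 0.501), but with 2 pairs per line they are treated as sharing only a number, and the block called no gene. Of the 30 genes past 1.4-fold whose array differences overlapped, 28 were apart when only same-numbered arrays were subtracted, *FST*, *CCN2* and *MIR221* among them. At 1.4-fold they were 12 and 152 with centred arrays, 46 and 126 at a level of 5, 10 and 34 at a level of 7 (5358 genes), 85 and 210 at 1.3-fold, 9 and 46 at 1.5-fold, and 1 and 6 at 2-fold. Without 1 array the counts ranged from 85 to 573 and 119 to 716 at an unadjusted p, from 19 to 88 and 45 to 278 at 1.4-fold, and from 955 to 2521 and 1244 to 2416 for no overlap, which fewer arrays raise by construction. The highest came without the second WPMY-1 vehicle array; the cause was not tested.

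Signs turned for *CXCL6* with centred arrays (−0.027). Without 1 array, *GDF15* ranged from −0.60 to 0.12, *DDIT3* from −0.17 to 0.33, *CXCL6* from −0.047 to 0.13, *INSIG1* from −0.72 to 0.016, *ACTA2* from −0.26 to 0.0038, *HIF1A-AS2* from −1.34 to 0.26, *HAS2* from −0.54 to 0.26 and *TNC* from −0.37 to 0.16. Centring moved the median of all genes from 0.04 to −0.03. Of the 55 named shared genes past 1.4-fold, 33 fell under it without at least 1 array, for example *INHBA* (−0.23) and *TGFB2* (−0.42) without the second WPMY-1 Pao array. Of the 28 list medians, 10 kept their sign in every scaling and every fit without 1 array.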
